A study of Ovis aries with 3 samples.

Results

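The cells described here are keratinocytes of the lamb rumen that carried the basal keratin KRT15 and showed little sign of cell division, taken from a library fed milk only and a library fed milk plus a concentrate starter. A barcode, which stands for 1 droplet and usually 1 cell, was taken when it met the following limits. It had at least 500 genes and under 20% of its unique molecular identifiers (UMIs, counts of captured RNA molecules) from the 13 mitochondrially encoded genes. It held at least 5 UMIs of KRT15, at most 1 UMI of the 5 division genes TOP2A, CENPF, NUSAP1, TPX2 and ASPM together, and at most 2 UMIs of KRTDAP, A2ML1 and KRT36, genes of differentiating keratinocytes. It held 0 UMIs of PTPRC, COL3A1, PECAM1 and C1QA, which mark leukocytes, fibroblasts, endothelium and macrophages. The limits left 5000 of the 16246 barcodes of these libraries, 1809 with milk only and 3191 with concentrate, out of 25789 barcodes in the series.

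The series profiled rumen epithelium of Hu sheep at 42 days of age with droplet-based single-cell RNA sequencing, with 1 library for milk only, 1 for milk plus alfalfa hay and 1 for milk plus concentrate starter. All lambs received milk, and the epithelium was released by repeated digestion with trypsin-EDTA. How many animals each library holds is not given in the sources used here. With 1 library per diet no difference has a replicate check, no test is possible, and a diet cannot be told apart from the animals or the preparation behind its library.

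The rumen is lined by a stratified squamous epithelium. Basal keratinocytes sit on the basement membrane and divide or move upward through a spinous and a granular layer into a horny surface. The lower layers take up short-chain fatty acids from the fermenting feed, oxidise butyrate to ketone bodies, recycle bicarbonate and protons through carbonic anhydrase, and pump sodium with the Na+/K+-ATPase, while the junctions between the cells hold the barrier.

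The selected barcodes had a median of 11036 UMIs and 1742 genes with milk only, and 7453 UMIs and 1371 genes with concentrate. They were 47.0% of the barcodes that passed the quality limits with milk only (45.4 to 48.6, exact binomial 95% interval) and 65.2% with concentrate (63.9 to 66.6). The limits are in UMIs, so the deeper milk-only barcodes could exceed them more easily. At the limit of 2 UMIs for the differentiation genes lay 219 milk-only and 25 concentrate barcodes, and just over it, with 3, another 76 and 14. At exactly 5 KRT15 UMIs lay 7 and 15 barcodes, and at 4 another 9 and 6. At the limit of 1 UMI for the division genes lay 348 and 596, and at 2 another 104 and 223. Mitochondrial UMIs had a median share of 6.62% with milk only and 10.4% with concentrate. The libraries shared 15 barcode sequences, 2 of them among the selected.

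The label fits the markers. KRT15, which the selection used, stood at 10003 CPM (a gene's UMIs for every 1000000 summed UMIs) with milk only, 9108 with concentrate and 6894 with hay under the same limits. The 7 other keratinocyte markers with a symbol, among them TP63, COL17A1 and ITGA6, were found in all libraries and summed to 638 CPM with milk only and 1024 with concentrate, of which DSP made up 212 and 600. T or NK cell markers that the limits did not use summed to 2.60 CPM with milk only (5 of 11 at 0) and 0.537 with concentrate (6 of 11 at 0), and macrophage markers to 4.45 (3 of 12 at 0) and 1.65 (6 of 12 at 0). Fibroblast markers summed to 242 and 28.5 CPM, nearly all of it DCN. LUM, PDGFRB, COL6A3 and DPT were at 0 in both libraries, and COL1A1 had 3 and 7 UMIs. Genes of differentiating keratinocytes that the limits did not use summed to 147 CPM with milk only and 29.3 with concentrate, nearly all of it SPINK5, so the milk-only selection held more of these upper-layer transcripts, and their part in the differences below was not tested. Neutrophil markers summed to 647 and 127 CPM, carried by S100A8, S100A9 and S100A12, while the defining genes CSF3R and MPO were at 0 in both.

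UMIs were summed over the selected barcodes of a library, 21563459 with milk only and 26086863 with concentrate. A ratio is concentrate over milk only, with an exact 95% interval that covers counting error only. Of 4636 genes with at least 10 CPM in at least 1 of these libraries, 131 were at least 2-fold higher with concentrate (2.83%) and 313 at least 2-fold lower (6.75%). At the 1.5-fold limit that the gene lists below use, 440 were higher (9.49%) and 662 lower (14.3%). Each list count is to be read beside these shares. The median log2 ratio was -0.01, with quartiles at -0.33 and 0.28. The lower tail was longer, with 5% of genes at or under -1.27 and 5% at or above 0.79.

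**Figure D1:**
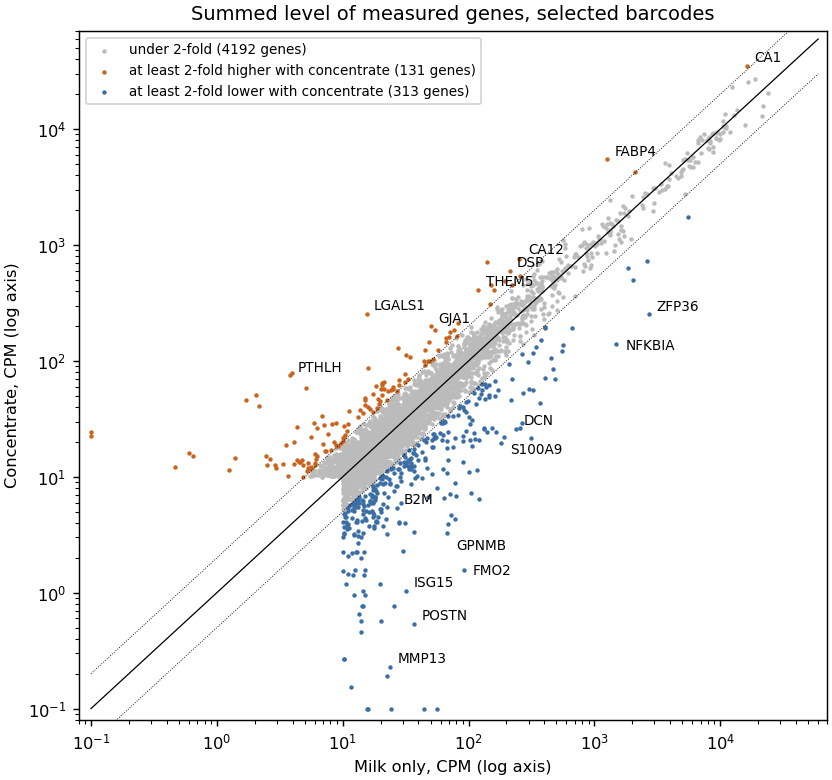
Summed level of each of 4636 measured genes in the selected barcodes, milk only on the horizontal and concentrate on the vertical axis, both in CPM on log axes. Levels under 0.1 CPM are drawn at 0.1, the solid line marks equal levels and the dotted lines a 2-fold difference. The 313 lower genes reach farther from the line than the 131 higher genes.

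The genes highest with concentrate against milk only were led by PTHLH and LGALS1. PTHLH (ENSOARG00000019663), parathyroid hormone-like hormone, a secreted peptide of keratinocytes, stood at 3.85 CPM with milk only, 75.1 with concentrate and 16.2 with hay, a ratio of 19.5 (15.7 to 24.6). LGALS1 (ENSOARG00000013956), the sugar-binding protein galectin-1, stood at 15.5, 255 and 1.58 CPM, a ratio of 16.5 (14.7 to 18.4). Concentrate was the highest of the 3 libraries for both, and for LGALS1 the hay level lay below the milk-only level.

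PTHLH UMIs were found in 4.20% of milk-only and 29.3% of concentrate barcodes, and LGALS1 UMIs in 12.8% and 65.7%. After each barcode was thinned to 2000 UMIs, which left out 39 and 35 shallower barcodes, these shares were 0.508% and 11.2% for PTHLH and 3.05% and 35.5% for LGALS1. The deeper milk-only barcodes therefore had the lower share with and without thinning. Barcodes with at least 2 PTPRC UMIs, which are leukocytes, had medians of 5618 UMIs with milk only and 3013 with concentrate. These leukocyte barcodes were shallower than the selected ones and were chosen for low KRT15, so they do not set the level of free RNA. A PTHLH UMI was found in 0 of 323 of them with milk only and 1 of 48 with concentrate. LGALS1, which leukocytes also express, was found in 130 and 32 of them.

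Some genes of lipid handling were also higher with concentrate. FABP4, a fatty acid-binding protein and PPAR target, stood at 1269.8 CPM with milk only, 5495 with concentrate and 684 with hay, a ratio of 4.33 (4.27 to 4.38). It differed in its spread over cells as well: the median barcode had 0 FABP4 UMIs per 10000 with milk only and 28.5 with concentrate. The tenth of barcodes with most FABP4 held 69.3% of its UMIs with milk only and 34.4% with concentrate. FABP4 UMIs were found in 78 of 323 and 13 of 48 leukocyte barcodes. THEM5, an acyl-CoA thioesterase, stood at 120 CPM with milk only, 409 with concentrate and 33.8 with hay, and LIPA, the lysosomal acid lipase, which is outside the lipid list, at 34.1, 109 and 61.3. FABP5, the epidermal fatty acid-binding protein, differed little in sum, at 858, 942 and 996 CPM. PDK4, a kinase that restrains pyruvate dehydrogenase, was 8.64-fold lower with concentrate (7.92 to 9.45). Among barcodes with a low share of immediate early RNA, defined further on, it was 2.76-fold lower (2.25 to 3.38). Of the 12 measured genes of fatty acid binding, PPAR and lipid storage, 3 were at least 1.5-fold higher and 2 lower, with a median of 0.23, where 9.49% of all measured genes were that much higher and 14.3% that much lower.

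**Figure D2:**
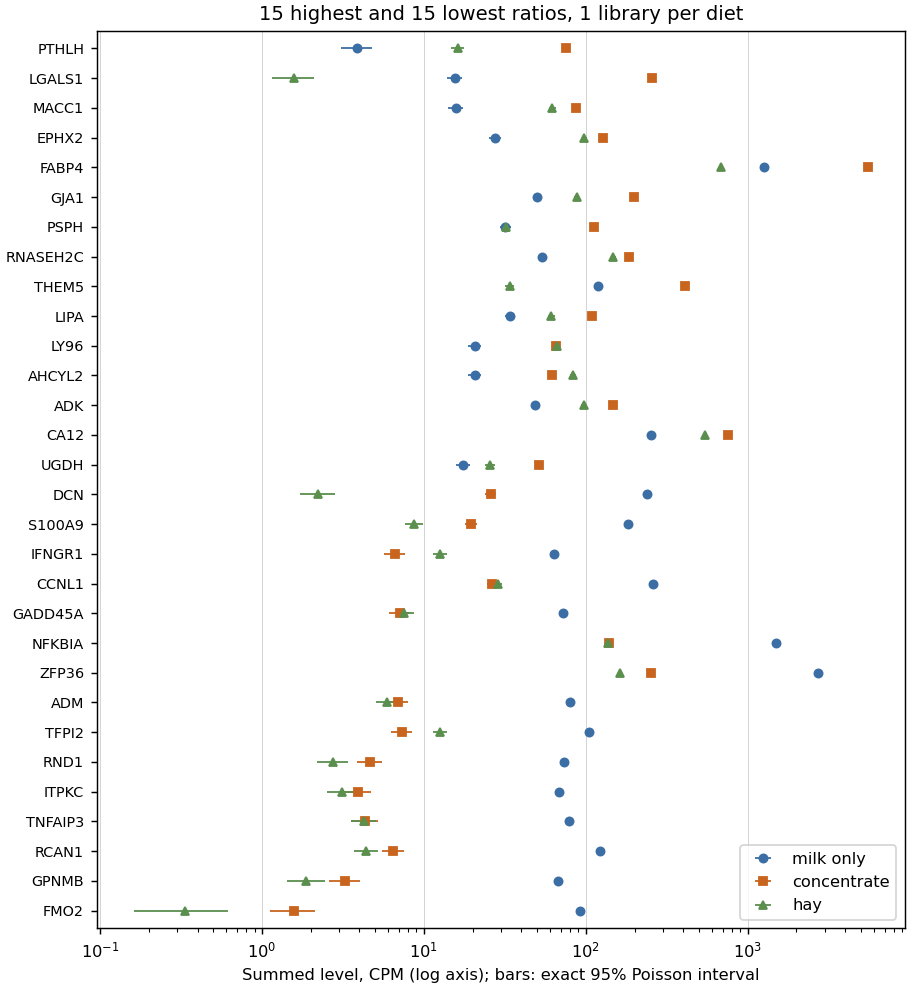
Level in CPM (log axis) of the named genes at either end of the ratios, 15 on each side, in the milk-only, concentrate and hay libraries under the same limits, 1 point per library with its exact 95% Poisson interval. In the upper 15 rows concentrate lies right of milk only, and hay lies between or beside them for most genes but left of both for LGALS1, FABP4 and THEM5. In the lower 15 rows milk only lies right of both.

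Transport genes were mostly higher with concentrate. In the transport list, which covers ions, urea and short-chain fatty acids, 10 genes were measured, of which 6 were at least 1.5-fold higher and 2 lower, with a median log2 ratio of 0.86 beside -0.01 over all genes. CA1, a cytosolic carbonic anhydrase, stood at 16202 CPM with milk only, 35121 with concentrate and 18989 with hay, a ratio of 2.17 (2.16 to 2.18). The gap was wider in the typical barcode, where the median was 47.9 CA1 UMIs per 10000 with milk only and 277 with concentrate. At the 90th percentile it was 508 and 630, so the libraries differed mostly in their low and middle barcodes. CA1 was also present in 321 of 323 milk-only and 43 of 48 concentrate leukocyte barcodes, so a CA1 UMI by itself does not mark a cell that expresses it. CA12, a membrane carbonic anhydrase, stood at 254, 759 and 548 CPM in the milk-only, concentrate and hay libraries.

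Accessory subunits of the sodium pump differed in opposite directions. ATP1B3 stood at 1338 CPM with milk only, 2433 with concentrate and 2010 with hay, whereas ATP1B1 stood at 568, 137 and 89.6 CPM, 4.14-fold lower with concentrate (3.99 to 4.30). ATP1B1 was lower across most of the barcodes, with medians of 4.83 UMIs per 10000 with milk only and 0.851 with concentrate. AQP5, a water channel, was 5.55-fold lower with concentrate (4.45 to 6.97).

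**Figure D3:**
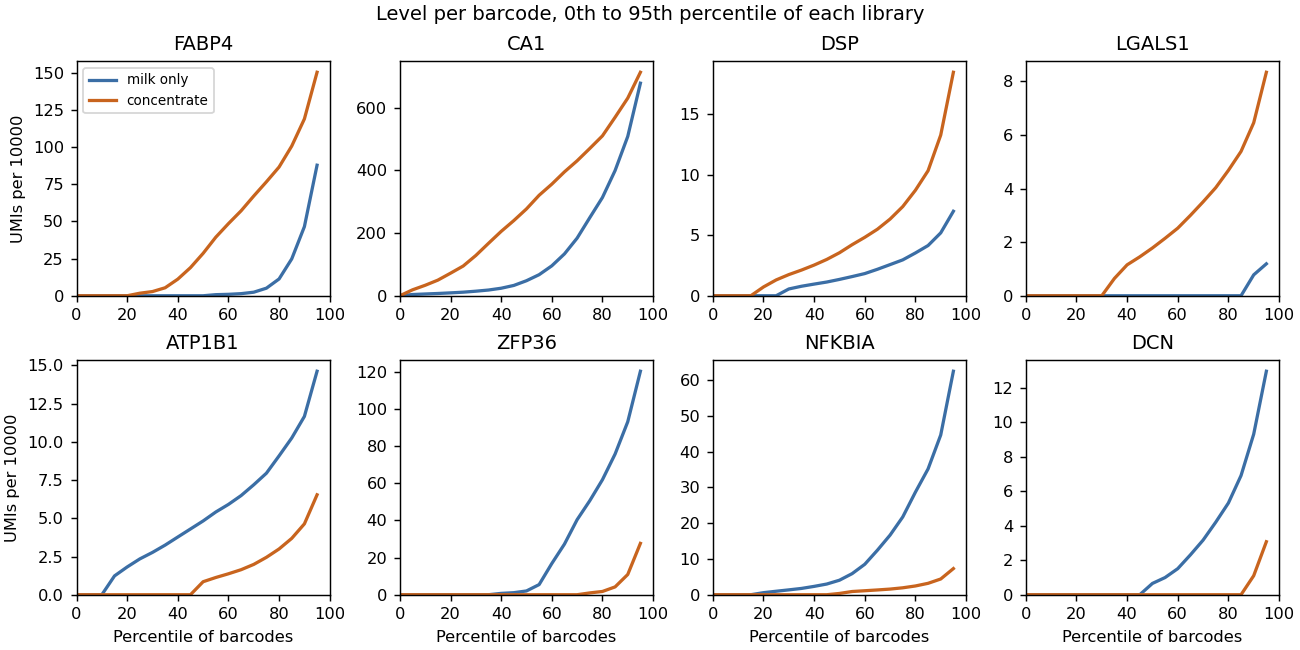
UMIs per 10000 of 8 genes in the selected barcodes, ordered from lowest to highest within each library, up to the 95th percentile. For FABP4, CA1, DSP and LGALS1 the concentrate curve lies above the milk-only curve once it leaves 0, and for ATP1B1, ZFP36, NFKBIA and DCN below it. The ZFP36 and NFKBIA curves of milk only bend upward beyond the middle of the barcodes, while the ATP1B1 curve climbs steadily from a low percentile.

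Butyrate oxidation and ketogenesis leaned to concentrate. Of 16 measured genes, 6 were at least 1.5-fold higher and 0 lower, with a median of 0.40. ACOT8, a peroxisomal thioesterase, had a ratio of 2.47, and HADH, which oxidises hydroxyacyl-CoA, one of 2.08. BDH1, which interconverts ketone bodies, stood at 406 CPM with milk only, 527 with concentrate and 855 with hay and did not reach 1.5-fold. For ACOT8, HADH and BDH1 the hay level lay above that of concentrate.

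Other genes of energy metabolism differed less. Of 19 tricarboxylic acid cycle genes, 4 were at least 1.5-fold higher and 0 lower (median 0.23), with the malic enzyme ME1 at a ratio of 2.05 (1.90 to 2.21). Of 11 glycolysis and lactate genes, 3 were higher and 0 lower (median 0.30). They included FBP1, a fructose bisphosphatase, at 15.2 CPM with milk only, 41.9 with concentrate and 97.1 with hay. Of 46 nuclear genes of oxidative phosphorylation, 1 was higher and 0 were lower (median 0.08). Of 12 mitochondrially encoded genes 3 were higher and 0 lower (median 0.29), COX1 most at a ratio of 1.86 (1.85 to 1.87). Mitochondrial genes made up 7.98% of milk-only and 11.1% of concentrate UMIs. The quality limits capped the share of mitochondrial UMIs in each barcode, so these levels and ratios depend in part on the choice of barcodes.

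Within amino acid and methyl-group metabolism, 7 of 17 genes were at least 1.5-fold higher and 4 lower, so the median of -0.27 describes neither side and was 0.23 with totals that left out the 50 most abundant genes. On the higher side PSPH, the last enzyme of serine synthesis, stood at 31.9 CPM with milk only, 112 with concentrate and 32.1 with hay. MAT2A, which makes S-adenosylmethionine, stood at 221, 455 and 411 CPM, and AHCYL2, a relative of adenosylhomocysteinase, at 20.7, 62.1 and 83.3. On the lower side stood SAT1, which acetylates polyamines, 6.69-fold lower with concentrate (5.96 to 7.51), and the amino acid transporter SLC38A2, 2.15-fold lower. Among barcodes with a low share of immediate early RNA this lower side was no longer seen in the list, with 7 of 14 measured genes higher, 0 lower and a median of 0.48. SAT1 had a log2 ratio of 0.04 there, and SLC38A2, then under 10 CPM and so not measured, -1.0. Among xenobiotic and retinoid genes 4 of 13 were higher and 4 lower. EPHX2, the soluble epoxide hydrolase, stood at 27.5, 128 and 97.9 CPM, and FMO2 (ENSOARG00000012434), a flavin monooxygenase, at 91.8, 1.57 and 0.336 CPM, 58.4-fold lower with concentrate (42.9 to 81.6).

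Genes of the basal layer differed about as seldom as all measured genes, while some junction genes differed more. Of 14 measured basal and hemidesmosome genes 0 were at least 1.5-fold higher and 2 lower. Of all measured genes 9.49% were that much higher and 14.3% that much lower. COL17A1, ITGA6, CD44 and TP63 were all within 1.5-fold. DSP, desmoplakin, which ties desmosomes to keratin filaments, stood at 212 CPM with milk only, 600 with concentrate and 316 with hay, a ratio of 2.83 (2.74 to 2.92). Of 8 measured desmosome genes 2 were higher and 1 lower. PKP4, plakophilin 4, was the other higher one, at 20.5 CPM with milk only and 31.9 with concentrate, a ratio of 1.56 (1.38 to 1.75). Among the remaining desmosome genes JUP stood at 137 and 178 CPM, DSC3 at 110 and 114, DSG3 at 124 and 110 and DSG2 at 33.7 and 22.2 (milk only, then concentrate). GJA1, the gap junction protein connexin 43, stood at 50.3, 198 and 87.7 CPM in the milk-only, concentrate and hay libraries, a ratio of 3.95 (3.70 to 4.22). Of 11 tight and gap junction genes 3 were higher and 2 lower. The tight junction scaffold TJP1 and the cadherin CDH1 stayed within 1.5-fold.

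Matrix and matrix-associated genes were mostly lower with concentrate. Of 13 measured, 11 were at least 1.5-fold lower and 1, the gelatinase MMP9, higher, with a median of -1.63. POSTN (ENSOARG00000010041), the matrix protein periostin, stood at 36.9 CPM with milk only, 0.537 with concentrate and 0.235 with hay, 68.7-fold lower with concentrate (40.7 to 126). DCN, the proteoglycan decorin, stood at 239, 25.8 and 2.22 CPM, 9.24-fold lower (8.53 to 10.0). COL12A1, a fibril-associated collagen, was 13.9-fold lower (9.36 to 21.4). MMP13, a collagenase, was 104-fold lower (47.6 to 285), but its UMIs came from 53 milk-only and 6 concentrate barcodes. Among barcodes with a low share of immediate early RNA it had 16 and 5 UMIs and was 6.50-fold lower (2.27 to 22.7), whereas DCN was 20.2-fold lower there (16.7 to 24.6).

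DCN, FMO2 and POSTN transcripts were spread over many milk-only barcodes. DCN UMIs were found in 52.2% of milk-only and 10.7% of concentrate barcodes, FMO2 UMIs in 45.4% and 1.16%, and POSTN UMIs in 20.1% and 0.376%. In leukocyte barcodes DCN was found in 3 of 323 with milk only and 0 of 48 with concentrate, and FMO2 and POSTN in 0 of both. The milk-only shares were above those in leukocyte barcodes. Those barcodes were shallower and chosen for low KRT15, so they do not set the level of free RNA. Outside the selection the fibroblast markers summed to 103 CPM with milk only, under the 242 inside it, and to 291 CPM with concentrate, above the 28.5 inside it. GPNMB, a membrane glycoprotein, stood at 67.4 CPM with milk only, 3.26 with concentrate and 1.88 with hay and was found in 26.6% of milk-only and 2.01% of concentrate barcodes.

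**Figure D4:**
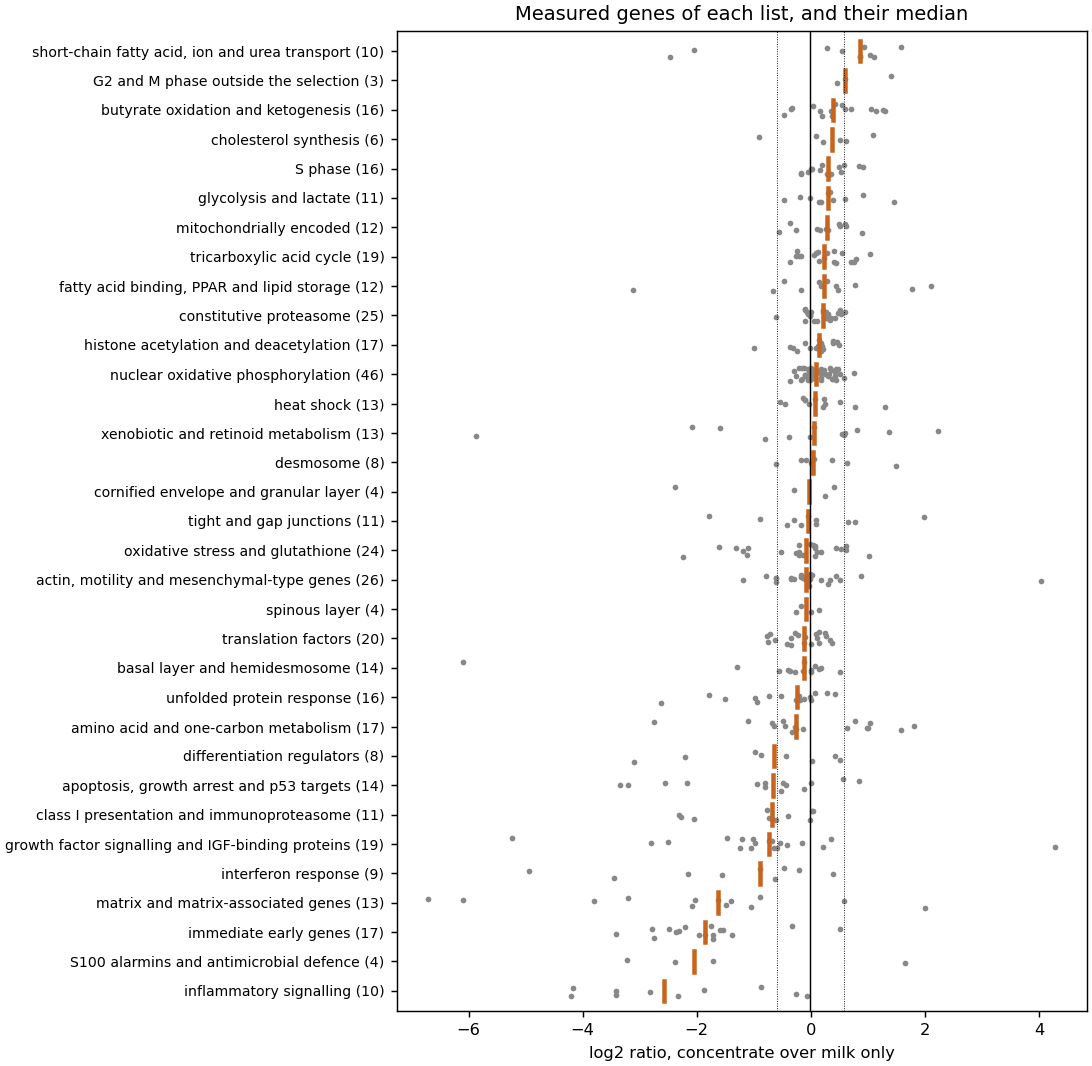
log2 ratio of concentrate over milk only for each measured gene (grey points) of the gene lists, with the list median as an orange bar and the number of measured genes in brackets. The solid line is the median of all measured genes and the dotted lines mark 1.5-fold. Transport lies highest, at 0.86, and inflammatory signalling lowest, at -2.57.

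Immediate early and inflammatory genes were lower with concentrate in sum. Of 17 immediate early genes, the transcription factors and RNA regulators that cells switch on within minutes of a stimulus, 15 were at least 1.5-fold lower and 0 higher (median -1.86). Of 10 inflammatory signalling genes 8 were lower and 0 higher (median -2.57). ZFP36, which belongs to both lists and promotes decay of cytokine mRNAs, stood at 2709 CPM with milk only, 253 with concentrate and 163 with hay, 10.7-fold lower (10.5 to 11). NFKBIA, the inhibitor of NF-kappa-B, stood at 1490.2, 140 and 138 CPM, and TNFAIP3, another brake of that pathway, at 78.3, 4.33 and 4.26. ATF3, a stress-induced transcription factor, was 6.92-fold lower (6.59 to 7.28).

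The immediate early and inflammatory transcripts were concentrated in some of the barcodes. The median barcode had 0.0662% of its UMIs from FOS, FOSB, JUN, JUNB, ATF3, EGR1 and ZFP36 together with milk only and 0.0172% with concentrate, but the upper quartile was 1.47% and 0.124%. At least 1% was found in 608 milk-only barcodes (33.6%) and 282 concentrate barcodes (8.84%). The 453 milk-only barcodes with the largest share held 23.7% of all milk-only UMIs, yet 82.0% of the RND1, 66.1% of the RCAN1 and 53.7% of the HSPA5 UMIs. They held 72.2% of the ZFP36 UMIs, but ZFP36 helped to order the barcodes, so this figure was built in and is no result. They held 39.3% of the DCN, 41.2% of the FMO2, 14.4% of the GPNMB and 10.9% of the S100A8 UMIs. Whether these transcripts arose before or after the tissue was taken was not tested.

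The lists were therefore also read in the 689 milk-only and 1811 concentrate barcodes at or under the pooled median share of 0.0245%. There the median log2 ratio was -0.12 for the 10 immediate early genes still measured, of 17. The 7 genes that chose the barcodes belong to that list, and ZFP36 to the inflammatory one too, so a shift of these medians toward 0 was built into the choice and is no result. The medians were -1.06 for 8 inflammatory, -0.13 for 6 interferon and -0.04 for 12 apoptosis and p53 genes, with 10, 9 and 14 measured over all barcodes. Members that fell under 10 CPM left these medians, among them ISG15 and IRF1. The median of 11 matrix genes was -1.77 and that of the 11 genes of class I presentation -0.80, and transport stayed high at 0.68. Of the 313 lower genes 141 (45.0%) were still measured and at least 2-fold lower among these barcodes. They are 75% of the 188 that were (4.15% of genes measured there). Of the 131 higher genes 101 (77.1%) were still measured and at least 2-fold higher, which is 65.6% of 154 (3.40%). Genes under 10 CPM there were not counted as kept, even if past 2-fold. Examples are ISG15 at a log2 ratio of -3.24, MMP13 at -2.70 and GADD45A at -1.20. The difference had the opposite sign for 34 of the 313 lower genes and for 0 of the 131 higher genes. These counts use the sign alone, without the intervals.

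Named genes past 2-fold that had the opposite sign among these barcodes were RCAN1, ITPKC, RND1, CDKN1A, BIRC3, SAT1, HSPA5, AREG and CLDN4. The interval of the ratio there excluded 1 only for AREG, HSPA5 and CDKN1A. For the rest, with RND1 at 5 milk-only and 11 concentrate UMIs, the difference was lost and its direction is unsettled. FABP5, at 0.14 and -0.24, and DSC2, at 0.01 and -0.10, also changed sign near 0. AREG, an EGF receptor ligand, had a log2 ratio of -2.51 over all barcodes and 1.31 among those with a low share. CDKN1A, the cell cycle inhibitor p21, had -3.20 and 0.48, and HSPA5, the main chaperone of the endoplasmic reticulum, -1.78 and 0.32. Named genes whose ratio moved by under 1.5 times included PTHLH, at 4.29 and 4.61, LGALS1, at 4.04 and 4.23, DSP, at 1.5 and 1.73, POSTN, at -6.10 and -6.59, and ATP1B1, at -2.05 and -2.23. FABP4 had 2.11 and 1.69, and CA1 1.12 and 0.73, which is smaller but on the same side. GPNMB, at -4.37 and -5.18, and DCN, at -3.21 and -4.34, lay farther from 0 among these barcodes. NFKBIA, at -3.42 and -1.07, TNFAIP3, at -4.18 and -0.69, and, among the genes that chose the barcodes, ZFP36, at -3.42 and -1.43, and ATF3, at -2.79 and -1.28, lay nearer to it. Among the 1201 milk-only and 2909 concentrate barcodes with a share under 1%, a limit chosen after seeing the data, 117 genes were at least 2-fold higher (2.57%) and 206 lower (4.53%).

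**Figure D5:**
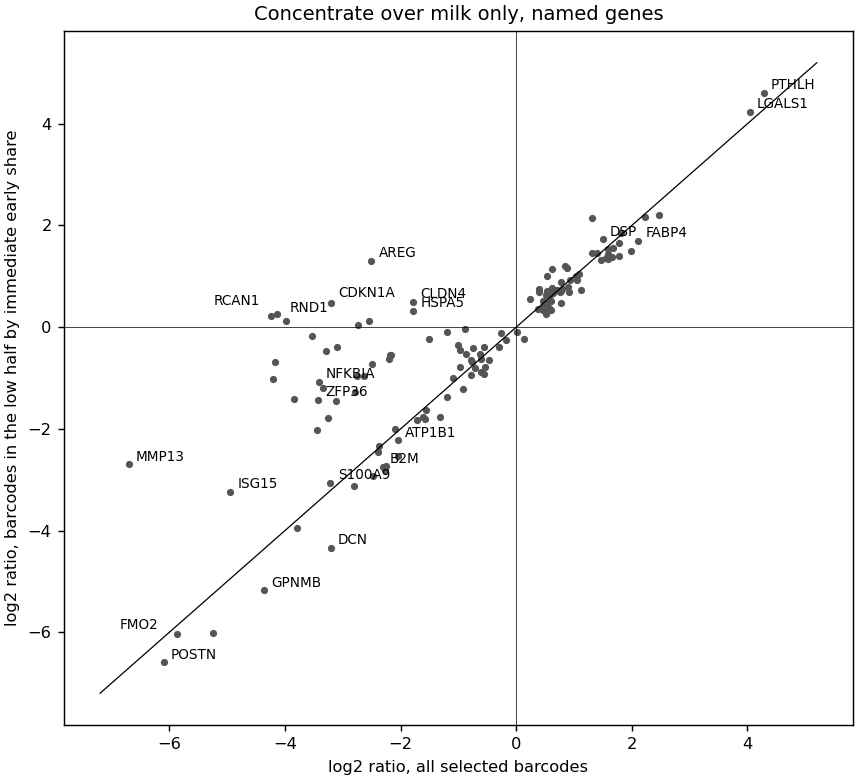
log2 ratio of concentrate over milk only for the named genes, over all selected barcodes on the horizontal axis and over the barcodes at or under the pooled median share of immediate early UMIs on the vertical axis, with the line of equal values. PTHLH, LGALS1, DSP, FMO2, POSTN and ATP1B1 lie near the line, while RCAN1, RND1, CDKN1A, HSPA5, CLDN4 and AREG lie above 0 on the vertical axis after a negative ratio over all barcodes.

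Class I presentation genes were lower with concentrate over all barcodes and among those with a low immediate early share. Of 11 measured genes of class I presentation and the immunoproteasome, 7 were at least 1.5-fold lower with concentrate and 0 higher (median -0.67), and the counts were the same among the low-share barcodes. PSMB8 and PSMB9, catalytic subunits of the immunoproteasome, stood at 75.2 and 51.1 CPM with milk only, 18.2 and 10.5 with concentrate, and 90.7 and 71.6 with hay. B2M, the light chain of class I molecules, stood at 26.9, 5.41 and 28.2 CPM, 4.97-fold lower with concentrate (4.13 to 6.02). For all 3 the concentrate library stood alone at the low end. Their log2 ratios were -2.05, -2.28 and -2.31 over all barcodes and -2.53, -2.81 and -2.75 among those with a low immediate early share. Of 25 constitutive proteasome genes 1 was higher and 1 lower (median 0.22).

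Of 9 interferon response genes 6 were at least 1.5-fold lower and 0 higher (median -0.89). ISG15, a ubiquitin-like interferon target, stood at 31.9 CPM with milk only, 1.03 with concentrate and 1.54 with hay, yet its UMIs were found in 7.08% of milk-only and 0.470% of concentrate barcodes. The transcription factor IRF1 was 10.9-fold lower (8.74 to 13.7), and 74.1% of its milk-only UMIs lay in the 453 barcodes with most immediate early RNA. Among barcodes with a low share 2 of 6 measured genes were lower and 0 higher (median -0.13). ISG15 and IRF1 were under 10 CPM there and so not among the 6. ISG15 was 9.47-fold lower (3.85 to 28.0, from 28 and 6 UMIs) and IRF1 4.06-fold lower (1.53 to 11.9, from 14 and 7 UMIs). IRF7, 4.47-fold lower over all barcodes, was 1.46-fold lower there, with an interval that held 1 (0.93 to 2.25).

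The alarmins S100A8, S100A9 and S100A12 were lower with concentrate. S100A8 stood at 302 CPM with milk only, 57.8 with concentrate and 19.1 with hay, 5.23-fold lower (4.95 to 5.54). S100A9 was 9.28-fold lower (8.46 to 10.2) and S100A12 3.27-fold lower (3.07 to 3.49). S100A8 UMIs were found in 64.9% of milk-only and 15% of concentrate barcodes, but also in 162 of 323 and 1 of 48 leukocyte barcodes, and the milk-only barcodes outside the selection held 5843 CPM of the neutrophil list against 380 with concentrate. How much of the difference is free RNA was not tested. LY96, the co-receptor that lets TLR4 bind endotoxin, was on the other side, at 20.7 CPM with milk only, 65.1 with concentrate and 66.2 with hay.

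Growth factor genes were mostly lower with concentrate over all barcodes, and those of oxidative stress were divided. Of 19 genes of growth factor signalling and IGF binding, 13 were at least 1.5-fold lower and PTHLH alone higher (median -0.74). Among barcodes with a low immediate early share 3 of 17 were higher and 8 lower (median -0.50). IGFBP6 stood at 323 CPM with milk only, 117 with concentrate and 83.6 with hay, and IGFBP2 at 1434, 893 and 280, while IGFBP5 stood at 274, 318 and 55.4. The receptors EGFR, FGFR2 and MET had log2 ratios of -0.64, -1.02 and -1.25. Of 24 oxidative stress and glutathione genes 3 were higher and 6 lower (median -0.08). MGST3, a microsomal glutathione transferase, stood at 2089, 4252 and 5601 CPM, and GSTM3, a cytosolic one, at 217, 45.8 and 25.8.

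Some groups differed little in these cells. Of 25 ribosomal protein genes 0 were 1.5-fold higher or lower (median -0.05). Of 20 translation factors 0 were higher and 4 lower, EIF3F at 1.69-fold, and of 17 genes of histone acetylation and deacetylation 0 were higher and 1, SIRT1, lower. SIRT1 had a log2 ratio of -1.0 over all barcodes and -0.35 among those with a low immediate early share. Of 13 heat shock genes 2, HSPA6 and HSPA1A, were higher and 0 lower. HSPA6 had log2 ratios of 1.30 over all barcodes and 2.16 in the low-share barcodes, from 21 milk-only and 190 concentrate UMIs. With barcodes of 5000 to 20000 UMIs it had 0.97. Although division genes were held low by the limits, 3 of 16 S phase genes were at least 1.5-fold higher with concentrate and 0 lower (median 0.30), RRM2 most at 7.56 and 14.3 CPM, where 9.49% of all measured genes were that much higher. Among barcodes with a low immediate early share, 5 of 16 S phase genes were higher and 0 lower (median 0.40). RRM2 had a ratio of 1.89 there (1.42 to 2.55). Among barcodes with an immediate early share under 1%, 1 of 16 S phase genes was higher and RRM2 had a ratio of 1.43 (1.18 to 1.74).

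The regulators of differentiation had 4 of 8 genes at least 1.5-fold lower and 0 higher (median -0.65). BHLHE40, a transcriptional repressor, was 8.61-fold lower (8.09 to 9.17), a log2 ratio of -3.11 that became -0.40 among barcodes with a low immediate early share. KLF4, a factor of the upper layers that is in the immediate early list too, was 4.61-fold lower over all barcodes, with log2 ratios of -2.21 and -0.62 in the same order.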

How the data were processed

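The deposited files hold raw UMI counts for each gene and barcode. Cell Ranger made them, in version 3.1 per the submitters' processing notes and in version 5.0.0 per the file headers. The genome build is not given in the sources used here, nor is the annotation or how barcodes were picked. Of 26247 genes, 17043 had a symbol, 14653 of them a symbol of 1 identifier, and 9204 stayed unnamed, since 0 identifiers matched the reference table. Groups came from the sample titles.

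Counts were summed per library over the selected barcodes and divided by the sum of all genes. With 1 library per diet no test was run. Intervals at 95% were exact Poisson for levels, conditional binomial for ratios and Clopper-Pearson for shares, and all cover counting error only. Measured genes had at least 10 CPM in 1 of the libraries compared. A count of 0 allows up to 3 counts. The code was tested on simulated data. No doublet caller was run, so doublets were kept. IER2 had no symbol, so the immediate early share used 7 of 8 genes. For members of gene families (S100A8 and S100A12, GSTA1, GSTM3, HSPA6, HSPA1A, CA1, FABP4) the files do not show how any reads shared with relatives were counted.

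Named genes were the 15 highest and 15 lowest ratios among genes of unique symbol, at least 50 CPM and 2-fold, without ribosomal protein, mitochondrial and selection genes, and from each list up to 4 of the largest ratios. Further list members named for contrast were chosen after seeing their values. Some genes under the rule are not reported here, though they count in the lists. The members and lists were chosen with earlier results of these data known. Alternatives varied scaling, cell limits, depth, weighting and the measured level. Python 3.11.15 was used with matplotlib 3.10.9, numpy 2.4.6, pandas 2.3.3 and scipy 1.17.1.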

Additional observations from a re-analysis of the deposited data

How the results depend on the processing

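No paired analysis was possible because each diet had 1 library. The 131 higher genes were 212 with totals that left out the 50 most abundant genes. They were 420 counted from 1 CPM and 57 of 1642 measured from 50 CPM. The 313 lower genes were 454 with the same totals, 188 at or under the median immediate early share and 206 among barcodes with a share under 1%. From 1 CPM they were 977, and from 50 CPM 115 of the same 1642. The number of genes measured, 4636 in the main count, changed with these settings, so the counts alone do not show a change in share. The other scalings gave 125 and 143 higher and 317 and 312 lower genes. List medians moved as follows. At or under the median immediate early share they were 0.051 for actin, -0.063 for nuclear oxidative phosphorylation, -0.12 for immediate early, -0.13 for interferon and 0.26 for histone acetylation genes. Under a share of 1% they were -0.035 for nuclear oxidative phosphorylation and -1.09 for immediate early genes. With barcodes of 5000 to 20000 UMIs they were 0.30 for nuclear oxidative phosphorylation and 0.33 for the constitutive proteasome. Spinous genes (4 measured, -0.08) had -0.47 under 10% mitochondrial UMIs, -0.39 thinned to 2000 UMIs and -0.39 with no limit on KRTDAP, A2ML1 and KRT36. That limit removed also gave -3.50 for S100 genes and 0.22 for histone acetylation. From 50 CPM histone acetylation had 0.30 and interferon 0.091, the opposite sign, with fewer genes measured, and from 1 CPM the G2 and M phase genes had 0.28. Named genes past 2-fold of opposite sign at or under the median immediate early share had log2 ratios of 0.32 (HSPA5), 0.50 (CLDN4), 1.31 (AREG), 0.12 (BIRC3), 0.043 (SAT1), 0.48 (CDKN1A), 0.12 (RND1), 0.26 (ITPKC) and 0.22 (RCAN1). Among them only HSPA5, AREG and CDKN1A had an interval of the ratio there that excluded 1. Of 138 named ratios, 38 moved by over 1.5-fold there, 29 under a share of 1%, 12 with the depth window, 9 under 10% mitochondrial UMIs and 0 under each scaling. Apart from fewer genes or barcodes, the cause was not tested.

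Depth limits the rarest genes: MMP13 had 6, IGF2 7 and POSTN 14 UMIs with concentrate.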

Other observations

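Genes named by the rule that the text has not described included RNASEH2C, a subunit of the ribonuclease that clears RNA from DNA, at 53.9 CPM with milk only, 185 with concentrate and 148 with hay. MACC1, a regulator of MET transcription, stood at 15.8, 87.0 and 62.1 CPM, a ratio of 5.52 (4.92 to 6.20), whereas MET itself stood at 34.6, 14.6 and 9.13. ADK, adenosine kinase, stood at 48.8, 146 and 97.4 CPM, and UGDH, which makes the glucuronic acid donor, at 17.5, 51.5 and 25.7. For these genes except MET the milk-only library was lowest and the concentrate library highest.

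On the lower side, IFNGR1, a chain of the interferon gamma receptor, stood at 63.3, 6.59 and 12.6 CPM, and TFPI2, a secreted protease inhibitor, at 105, 7.28 and 12.6. CCNL1, a cyclin of RNA splicing, stood at 259, 26.5 and 28.5 CPM. ADM, the peptide adrenomedullin, stood at 79.7, 6.90 and 5.91 CPM. The 453 milk-only barcodes with most immediate early RNA held 56.7% of the IFNGR1, 64.0% of the TFPI2, 65.6% of the CCNL1 and 51.4% of the ADM UMIs. Among barcodes with a low immediate early share their log2 ratios were -1.78, -1.42, -0.47 and -0.17, against -3.26, -3.85, -3.29 and -3.53 over all barcodes. MYLK, myosin light chain kinase, had the most UMIs of the smooth muscle markers, 53 with milk only, 392 with concentrate and 460 with hay, while RGS5 and CNN1 were at 0 in all libraries.

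Among all 4636 measured genes, 7 had at most 3 UMIs in the selected barcodes of 1 of the compared libraries. They fall outside the naming rule, being under 50 CPM or without a symbol, and were chosen after their values were seen. OTOR, a secreted protein first described in the cochlea, had 951 UMIs in 208 of 1809 barcodes with milk only and 0 with concentrate or hay, at least 383-fold lower with concentrate against a floor of 3 counts in that library. GBP5, a guanylate-binding protein induced by interferon gamma, had 335 UMIs with milk only, 1 with concentrate and 2 with hay, 405-fold lower with concentrate (72.2 to 16055, counting error only). In the other direction CDH7, a cadherin, had 0 UMIs with milk only, 587 in 386 of 3191 barcodes with concentrate and 79 with hay, at least 162-fold higher with concentrate against the same floor. The other 4 have no symbol in the files. ENSOARG00000019479 had 1215 UMIs in 828 milk-only barcodes and 0 in the other libraries, whereas the 342 milk-only UMIs of ENSOARG00000009488 came from 2 barcodes.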
